A study of Mus musculus with 8 samples.

Results

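The 77 genes described here carry the symbols of mitochondrial ribosomal proteins, and all but Mrps36 encode known parts of the mitochondrial ribosome. They are defined by name, as the rows of the input RNA table whose symbol is Mrpl or Mrps followed by a number and at most 1 letter, out of 16279 genes in that table. The group was chosen with earlier results of these data known. The list of differential m6A peaks held 11 peaks on these genes, out of 2114 in all.

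The mitochondrial ribosome, or mitoribosome, translates the few messenger RNAs made from mitochondrial DNA, which encode core subunits of the respiratory chain and of ATP synthase. Its ribosomal RNAs come from the mitochondrial genome, while every protein is encoded in the nucleus, made by cytosolic ribosomes and imported. Its small subunit decodes the messenger RNA and its large subunit forms the peptide bonds, as in bacteria. Many of its proteins have bacterial homologues and others are found only in mitochondria.

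The cells were N2a, a mouse neuroblastoma line. With Lipofectamine RNAiMAX, siRNA against Emg1 or siControl was introduced, and cells were collected 48 h later. Emg1 encodes a methyltransferase of 18S ribosomal RNA in the small subunit of the cytosolic ribosome, and the study asked how it influences N6-methyladenosine (m6A) in mRNA. The 8 libraries, made from poly(A) RNA, fall into 4 groups of 2, namely m6A IP (immunoprecipitation with an antibody to m6A) and input from Emg1-knockdown cells, and IP and input from control cells. Whether the libraries of a group are separate cultures is not stated, and p-values measure only the spread between these libraries, which may be technical. No table used here gives values per library, so depth per library is unknown, and each input value below is the log2 fold change of Emg1 knockdown over control with the standard error (SE) of the authors' own DESeq2 fit.

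The authors' deposited table does not name the direction of its fold changes. Emg1 itself stood at -1.73 ± 0.11 (log2, SE) there, so a negative value is taken as lower in Emg1-knockdown cells. Of 12 neuroblastoma and neuronal markers, 10 had a mean count of at least 100. Of 7 fibroblast, 6 leukocyte, 5 endothelial and epithelial and 5 glial markers, 2, 0, 1 and 1 reached that mean. At an adjusted p under 0.05 from DESeq2, 6 of the 11 neuroblastoma markers measured rose and 2 fell. Of the 4 fibroblast markers measured, 1 fell. Among all genes tested 17.1% rose and 15.5% fell. The part of the marker shifts in the results below was not tested.

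All 77 members had an adjusted p, with mean normalized counts between 363 and 5997 over the libraries of the fit. In bulk RNA, fewer cells expressing a gene and less RNA per cell cannot be told apart. At a Benjamini-Hochberg adjusted p under 0.05 from DESeq2, in the authors' deposited table, 15 members fell, 5 rose and 57 did not pass. The called share was thus 26.0%, against 32.6% of all 12807 genes tested and 38.8% of the 8358 tested genes whose mean count lay in the range of the members. The share that fell was 19.5%, against 15.5% of all genes tested and 17.3% of those in the range. The share that rose was 6.49%, against 17.1% and 21.4%. With p-values adjusted over every gene with no filter on low counts, 3 members rose and not 5, and 22.1% of members were called, against 24.4% of all 16279 genes. With fold changes centred on genes of higher mean count 3 rose, and 23.4% of members were called, against 32.3% of all genes tested. At an adjusted p under 0.01, 9 members were called, of which 7 fell and 2 rose. That is 11.7% of members, against 23.3% of all genes tested (1408 fell and 1575 rose). The median log2 fold change of the members was -0.06, against 0.00 over all genes tested and 0.02 over those in the range. Below 0 lay 47 members (61.0%), against 50.2% of all genes tested and 46.8% of those in the range.

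The changes were small. The lowest member stood at 68.4% of control and the highest at 147%, so that 0 of 77 members changed by 1.5-fold or more, where 10.3% of all genes tested and 5.40% of those in the range of mean counts did. For 70 members the whole 95% interval of the change, computed from the authors' SE, lay within 1.5-fold in either direction. That is 90.9% of them, against 79.6% of the genes in the range.

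**Figure D1:**
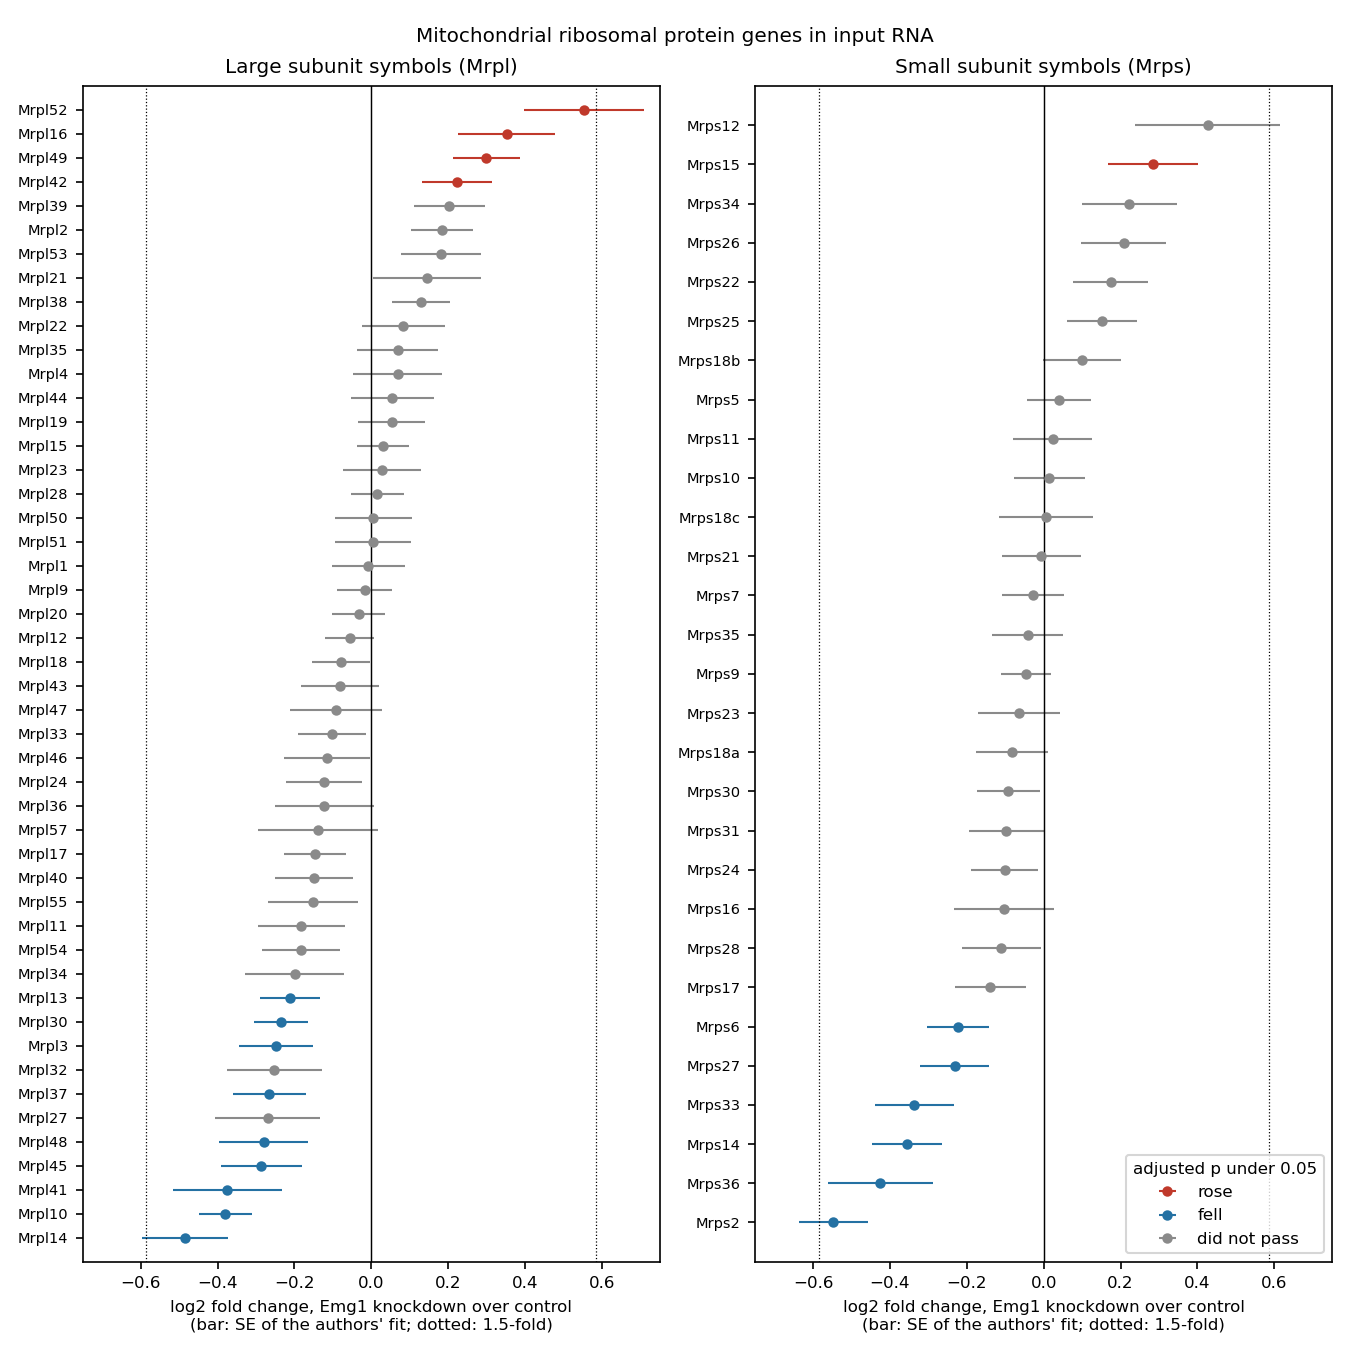
Log2 fold change (Emg1 knockdown over control) of the 48 genes with Mrpl symbols and the 29 with Mrps symbols, ordered by value, with bars for the SE of the authors' fit and dotted lines at 1.5-fold. The 15 genes that fell and the 5 that rose sit at the ends of a continuous order, and every point lies inside the dotted lines.

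The deepest fall was in a gene of the small subunit. Mrps2, a homologue of a bacterial small subunit protein (GRCm38 chromosome 2, 28465951 to 28471177), fell in the authors' deposited table by 0.55 ± 0.09, to 68.4% of control (adjusted p = 2.21e-08). Mrps14, another bacterial homologue, fell by 0.36 ± 0.09 (adjusted p = 0.000565 in the authors' deposited table). Mrps33, which is found only in mitochondria, fell by 0.34 ± 0.10 (adjusted p = 0.00495 in the authors' deposited table). The 95% intervals of Mrps2, Mrps14 and Mrps33 all lay below 0.

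Mrps27, an RNA-binding pentatricopeptide repeat protein of the small subunit, and Mrps6, a bacterial homologue, fell by smaller amounts. The authors' deposited table gave -0.23 ± 0.09 (adjusted p = 0.0331) for Mrps27 and -0.22 ± 0.08 (adjusted p = 0.0213) for Mrps6. Mrps15, a further bacterial homologue, was the one gene with an Mrps symbol that rose, by 0.28 ± 0.12, with an adjusted p of 0.0478 in the authors' deposited table.

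Mrps12, whose bacterial homologue lies at the decoding centre, had the highest estimate of the small subunit and did not pass. In the authors' deposited table it stood at 0.43 ± 0.19, with an adjusted p of 0.0664 and a 95% interval from 0.06 to 0.79. It also had the lowest mean count of all members, 363, and the largest SE. Mrps34 and Mrps26, both found only in mitochondria, followed among the members that did not pass, at 0.22 ± 0.12 and 0.21 ± 0.11 in the authors' deposited table.

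Mrps18a, Mrps18b and Mrps18c are paralogues related to 1 bacterial protein, and none of the 3 passed. The authors' deposited table gave -0.08 ± 0.09 for Mrps18a, 0.10 ± 0.10 for Mrps18b and 0.01 ± 0.12 for Mrps18c. Their 95% intervals together span -0.27 to 0.30, so larger changes than these were outside every interval. In the known structure Mrps18a sits in the large subunit, as does Mrps30.

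Mrps36 is a member by its symbol, but its protein is now known as a subunit of the 2-oxoglutarate dehydrogenase complex and not of the mitoribosome. The authors' deposited table put it at -0.43 ± 0.14, with an adjusted p of 0.00858. The annotation lists 3 pseudogenes of Mrps36, so its count is uncertain. Without it, 14 members fell and 19 were called.

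In the large subunit 9 genes fell and 4 rose, out of 48 with Mrpl symbols. Mrpl14, a bacterial homologue (GRCm38 chromosome 17, 45685722 to 45698495), fell in the authors' deposited table by 0.48 ± 0.11, to 71.5% of control (adjusted p = 0.000149). Mrpl10, which anchors the stalk that recruits translation factors, fell by 0.38 ± 0.07 and had the smallest adjusted p of the large subunit, 6.76e-07, in the authors' deposited table. Its partner in the stalk, Mrpl12, did not pass: the authors' deposited table gave -0.06 ± 0.06 with an adjusted p of 0.544. Mrpl12 had the highest mean count of all members, 5997, and a 95% interval from -0.18 to 0.07. The difference between Mrpl10 and Mrpl12 was not tested.

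Other bacterial homologues of the large subunit fell less. The authors' deposited table gave -0.25 ± 0.10 for Mrpl3 (adjusted p = 0.0336), -0.24 ± 0.07 for Mrpl30 (adjusted p = 0.00368) and -0.21 ± 0.08 for Mrpl13 (adjusted p = 0.0263). Among proteins found only in mitochondria, Mrpl41 fell by 0.37 ± 0.14 and Mrpl45, which lies at the exit of the peptide tunnel and tethers the ribosome to the inner membrane, by 0.29 ± 0.11 in the authors' deposited table. Mrpl48 and Mrpl37, of the same class, fell by 0.28 ± 0.12 and 0.27 ± 0.09 in the authors' deposited table. The adjusted p of Mrpl48 was 0.0484, the closest to the threshold among the members called. Mrpl48 has 1 annotated pseudogene, and its count is uncertain.

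The 4 large subunit genes that rose were Mrpl52, Mrpl16, Mrpl49 and Mrpl42. Mrpl52 had the largest rise of all members, 0.55 ± 0.16 or 147% of control, with an adjusted p of 0.00211 in the authors' deposited table. Mrpl16, a bacterial homologue, rose by 0.35 ± 0.13 (adjusted p = 0.0202 in the authors' deposited table). The authors' deposited table put Mrpl49 at 0.30 ± 0.09 (adjusted p = 0.00337) and Mrpl42 at 0.22 ± 0.09 (adjusted p = 0.0467). Apart from Mrpl16 these are proteins found only in mitochondria.

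Of the large subunit genes that did not pass, the lowest were Mrpl27, Mrpl32 and Mrpl34, all bacterial homologues. Their values were -0.27 ± 0.14, -0.25 ± 0.12 and -0.20 ± 0.13 in the authors' deposited table. Mrpl27 and Mrpl32 were among the 5 members with an unadjusted p under 0.05 that did not pass after adjustment. Mrpl27 also has 1 annotated pseudogene, and its count is uncertain. Across all 57 members that did not pass, 32 lay below 0 and 25 above.

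Mrpl symbols had a median of -0.08 and Mrps symbols of -0.05, with 27.1% and 24.1% of genes called. Among all genes tested 32.6% were called, and 38.8% of those in the range of the members' mean counts. The 46 bacterial homologues had a median of -0.05, with 8 that fell and 2 that rose (21.7% called). The 30 proteins found only in mitochondria had a median of -0.07, with 6 that fell and 3 that rose (30% called). These classes were drawn from general knowledge after the values were seen, and the differences between them were not tested.

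Of 76 cytosolic ribosomal protein genes, 45 fell and 5 rose, with a median of -0.19, and examples are Rps19 at -1.38 ± 0.07, Rpl39 at -0.65 ± 0.05 and Rpl13a at -0.56 ± 0.05 in the authors' deposited table. The share of cytosolic ribosomal protein genes called was 65.8%, against 26.0% of the mitochondrial ones and 32.6% of all genes tested. The share that fell was 59.2%, against 19.5% and 15.5%. Counts of the cytosolic genes are uncertain, since near-identical pseudogenes could share their reads. Their median SE was 0.06 and that of the members 0.10, at median mean counts of 11962 and 1516. The part of this precision in the called shares was not tested.

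**Figure D2:**
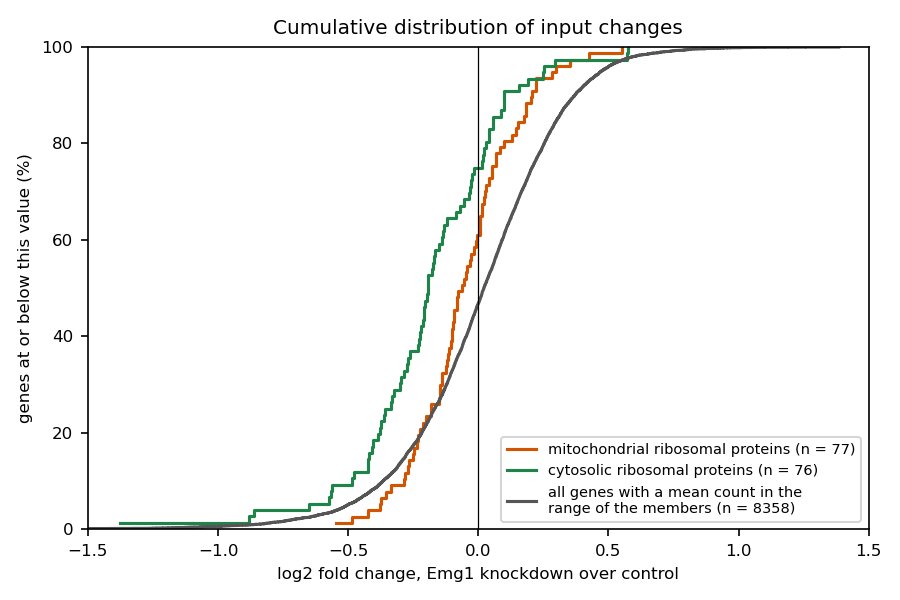
Cumulative share of genes (%) by log2 fold change, Emg1 knockdown over control, for the 77 mitochondrial ribosomal protein genes, 76 cytosolic ones and the 8358 tested genes with a mean count in the range of the members. The mitochondrial curve is steep, with all values between -0.55 and 0.55 and a median of -0.06, and the cytosolic curve has a median of -0.19. Genes that changed by more than 1.5 on the log2 scale are off the axis.

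Other genes of mitochondrial translation are given as lists. Of all genes tested 32.6% were called, with 17.1% that rose and 15.5% that fell, and differences of the lists from these shares were not tested. Of 6 mitoribosome proteins with other symbols, 2 fell and 0 rose (33.3% called). Ict1, a peptidyl-tRNA hydrolase built into the large subunit, was at -0.43 ± 0.09, and Ptcd3, a pentatricopeptide repeat protein of the small subunit, at -0.36 ± 0.07 in the authors' deposited table. Of 30 assembly and rRNA modification factors, 3 rose and 1 fell (13.3% called). Noa1, a GTPase of small subunit assembly, rose by 0.33 ± 0.08, the small subunit factor gene Mettl17 by 0.54 ± 0.18, and Rnmtl1, a methyltransferase of the large rRNA, by 0.41 ± 0.15 in the authors' deposited table. Malsu1, a factor that binds the large subunit, fell by 0.38 ± 0.14 in the authors' deposited table.

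Of 23 mitochondrial translation factors, 3 rose and 0 fell (13.0% called). Lrpprc, which stabilises mitochondrial messenger RNAs, rose by 0.36 ± 0.06, the deformylase gene Pdf by 0.51 ± 0.17 and the elongation factor gene Tsfm by 0.20 ± 0.08 in the authors' deposited table. Of 17 mitochondrial aminoacyl-tRNA synthetase genes, 1 rose and 3 fell (23.5% called). Tars2 was at 0.35 ± 0.09, Iars2 at -0.29 ± 0.08, Nars2 at -0.31 ± 0.11 and Lars2 at -0.66 ± 0.19 in the authors' deposited table. The mean count of Lars2 was 406675, while that of Iars2, the next highest synthetase gene, was 2832 and the highest of any mitoribosomal member was 5997. Whether all reads counted for Lars2 come from its messenger RNA was not tested, so its count and its fall are uncertain.

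Genes that replicate and transcribe mitochondrial DNA and process its transcripts rose in 5 cases and fell in 1 out of 26 (23.1% called). That is 19.2% that rose, against 17.1% of all genes tested, and 3.85% that fell, against 15.5%. Polrmt, the mitochondrial RNA polymerase, rose by 0.52 ± 0.11, the DNA polymerase gene Polg by 0.36 ± 0.09, the helicase gene Peo1 by 0.39 ± 0.10 and the tRNA-processing gene Elac2 by 0.34 ± 0.10 in the authors' deposited table. Of 14 tested regulators of mitochondrial biogenesis and stress, 5 rose and 2 fell (50% called). Pprc1, a coactivator of nuclear genes for mitochondrial proteins, rose by 0.67 ± 0.07 and Myc by 0.54 ± 0.08 in the authors' deposited table. The stress response factor genes Atf4 and Atf5 were at -0.43 ± 0.06 and -0.59 ± 0.12 in the authors' deposited table. Of 18 mitochondrial chaperone and protease genes, 0 rose and 2 fell (11.1% called). These were the protease gene Afg3l1 at -0.42 ± 0.07 and the chaperonin gene Hspe1 at -0.36 ± 0.07 in the authors' deposited table.

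Many genes for mitochondrial proteins are known to be driven by nuclear factors that bind close to their start sites, among them NRF1, the ETS factor GABP and YY1. Of the genes for these factors, Nrf1 (0.15 ± 0.09), Gabpa (-0.004 ± 0.09), Gabpb1 (0.02 ± 0.10) and Yy1 (-0.16 ± 0.10) did not pass in the authors' deposited table. Gabpb2 rose there by 0.32 ± 0.08. The part of these factors in the changes of the members was not tested. RefSeq start-site windows of GRCm38.p6, from 250 bases before to 50 after the start, were matched to 68 of the 77 members by symbol or synonym. They were searched on both strands for GCGCNTGCG (NRF1), CCGGAAG (ETS) and AAGATGGCG (YY1). At least 1 motif was found for 42 members (61.8%), against 16.6% of the 27025 genes in the table and 39.5% of the 6790 tested genes with a mean count in the range of the members. At least 1 was held by 55.4% of the 56 cytosolic ribosomal protein genes matched the same way. The shares for the single motifs were 26.5% (NRF1), 36.8% (ETS) and 11.8% (YY1) of the members, against 17.7%, 23.4% and 4.24% of the genes in that range and 12.5%, 41.1% and 5.36% of the cytosolic ribosomal protein genes. Members held both NRF1 and ETS in 7 cases and both ETS and YY1 in 2. A match is a description of the letters, not evidence of binding.

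Stretches of 30 bases around a match are shown for genes that fell, rose or did not pass, so that the same letters can be seen beside different outcomes. They read 5′ to 3′ on the strand of the gene, with the motif in capitals, in GRCm38.p6. The first lines are from members that fell, the next from members that rose, and the last from Mrpl12.
Mrpl30, NRF1, chr1:37890383-37890412, plus strand: gtgacgccgctGCGCCTGCGctgtcttcta
Mrpl10, NRF1 on the opposite strand, chr11:97041436-97041465, plus strand: gcccagctccaCGCATGCGCatagcggccc
Mrpl14, NRF1 on the opposite strand, chr17:45686343-45686372, plus strand: aacccctggcgCGCAGGCGCagcgtgcggg
Mrpl3, ETS, chr9:105053237-105053266, plus strand: ttgagaaacggaCCGGAAGtggcccggctg
Mrps27, YY1, chr13:99344789-99344818, plus strand: tggtgcgctccAAGATGGCGgctcccatgg
Mrpl52, ETS on the opposite strand, chr14:54426850-54426879, plus strand: tcaagatgtcggCTTCCGGttttcccggca
Mrpl42, YY1, chr10:95501904-95501933, minus strand: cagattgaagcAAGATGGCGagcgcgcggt
Mrpl12, NRF1, chr11:120484545-120484574, plus strand: gtattgtctccGCGCCTGCGcgtcgcaccg

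At least 1 of these motifs was found in 9 of 14 members that fell, 2 of 5 that rose and 31 of 49 that did not pass. Genes with a single motif were few for each outcome. NRF1 was found in 4 of 14 members that fell and 14 of 49 that did not pass, which is 28.6% of each, and in 0 of 5 that rose. ETS was found in 4 of the 14 that fell, 1 of the 5 that rose and 20 of the 49 that did not pass. YY1 was found in 2, 1 and 5 of them. The median log2 fold change was -0.05 for 18 members holding NRF1, -0.08 for 25 holding ETS and -0.09 for 8 holding YY1. Over all 77 members it was -0.06.

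Some members also start next to another gene, and how many of all genes do so was not analysed here. Of the members in the RefSeq windows, 27 had a start site of a gene on the opposite strand no more than 1000 bases upstream, or overlapping by at most 200, forming 26 pairs. Both genes were tested in all 26. Mrpl46 and Mrps11 form such a pair with each other on chromosome 7, and neither passed, at -0.12 ± 0.11 and 0.02 ± 0.10 in the authors' deposited table. Their start sites are 42 bases apart, and the 41 bases between them are shown because they are shared by a gene of each subunit.
Mrps11 upstream, chr7:78783090-78783130, plus strand: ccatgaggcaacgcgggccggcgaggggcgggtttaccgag

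Of the 26 pairs, 3 had both genes called, and the neighbour was called in 11. Among all members 26.0% were called, and among all genes tested 32.6%. How often both genes are called in head-to-head pairs without a member was not analysed here. Mrpl14 and Tmem63b, with start sites 131 bases apart, both fell, by 0.48 ± 0.11 and 0.54 ± 0.08 in the authors' deposited table. Mrpl48 and the Rab GTPase gene Rab6a both fell, by 0.28 ± 0.12 and 0.20 ± 0.07 in the authors' deposited table. Mrpl41 fell by 0.37 ± 0.14 while Pnpla7, whose start is 935 bases away, rose by 0.76 ± 0.17 in the authors' deposited table. Mrpl43 did not pass, at -0.08 ± 0.10, beside the helicase gene Peo1, which rose by 0.39 ± 0.10 with a start 116 bases away, in the authors' deposited table. In 5 other pairs the neighbour rose and the member did not pass. Spans overlap by 622 bases between Mrpl14 and Tmem63b by 727 between Mrpl48 and Rab6a and by 780 between Mrpl43 and Peo1, and the sources used here do not give the strand setting of the read counter. The part of shared reads in these pairs was not tested.

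**Figure D3:**
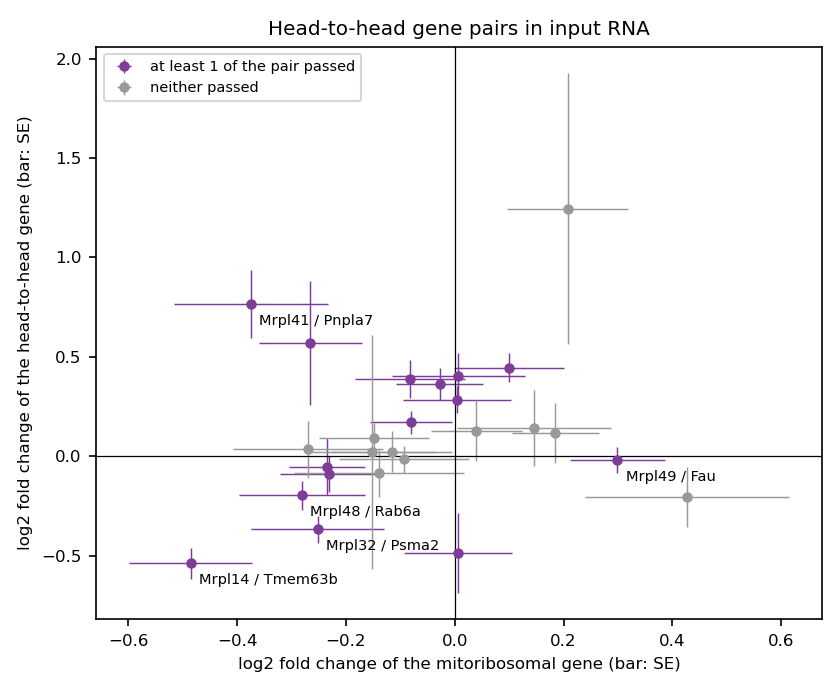
Log2 fold change (Emg1 knockdown over control) of each mitoribosomal gene, across, and of its head-to-head neighbour, upward, for the 26 pairs, with bars for the SE; purple marks pairs in which at least 1 gene passed. Mrpl14 and Tmem63b lie together at the lower left, and Mrpl41 and Pnpla7 lie apart at the upper left.

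Differential m6A peaks were listed on 11 of the 77 members, 14.3% of them, against 14.8% of the genes tested in input and 18.3% of those with a mean count in the range of the members. Of the peaks, 6 had a negative and 5 a positive change. By sign, 7.79% of the members had a negative and 6.49% a positive change, against 7.89% and 7.21% of the genes tested and 8.32% and 10.3% of those in the range. The sign is as deposited and is not read as gain or loss, because the peak list names no numerator. Large subunit genes, by the known structure, held 10 of the peaks among 50 genes, and small subunit genes 1 among 26, on Mrps35. The difference between subunits was not tested. Only differential peaks were analysed here, so members without one may still carry m6A.

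Negative-change peaks on 4 genes began at or just after the gene start. In the authors' deposited table the peak on Mrpl34, a bacterial homologue of the large subunit, had a change of -1.43 (chromosome 8, 71464926 to 71465043, mm10) and began at the first base of the annotated gene. On Mrpl10 the authors' deposited table lists -1.16 for a peak (chromosome 11, 97041586 to 97044579) that began 4 bases after the gene start. The peak on Mrpl57 (chromosome 14, 57826239 to 57827020), whose protein is small and found only in mitochondria, is listed at -1.16 in the authors' deposited table and began 11 bases after the start. The authors' deposited table lists -1.12 for the peak on Mrpl27 (chromosome 11, 94653791 to 94659766), which began 21 bases after the start and ran over 4 blocks. These were the 4 lowest changes on the members.

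The other negative changes lay at the far end. The authors' deposited table gave -0.69 on Mrps35 (chromosome 6, 147070665 to 147070902), which ended 4 bases before the gene end, and -0.50 on Mrpl54 (chromosome 10, 81264722 to 81264986), which ended at the last base. Both genes encode proteins found only in mitochondria. Both changes were nearer 0 than those of the peaks at gene starts.

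Positive changes lay towards the gene end, with 1 exception. In the authors' deposited table the highest was 0.85 on Mrpl46 (chromosome 7, 78775341 to 78775664), followed by 0.70 on Mrpl14 (chromosome 17, 45698257 to 45698495) and 0.60 on Mrpl13 (chromosome 15, 55534095 to 55539078), and each of these peaks ended at the last base of its gene. The peak on Mrpl45 (chromosome 11, 97328498 to 97329742), listed at 0.48 by the authors' deposited table, ended 178 bases before the gene end and was the longest single block, 1245 bases. The peak on Mrpl19, a bacterial homologue (chromosome 6, 81961674 to 81962153), listed at 0.42 by the authors' deposited table, lay in the middle of the span.

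**Figure D4:**
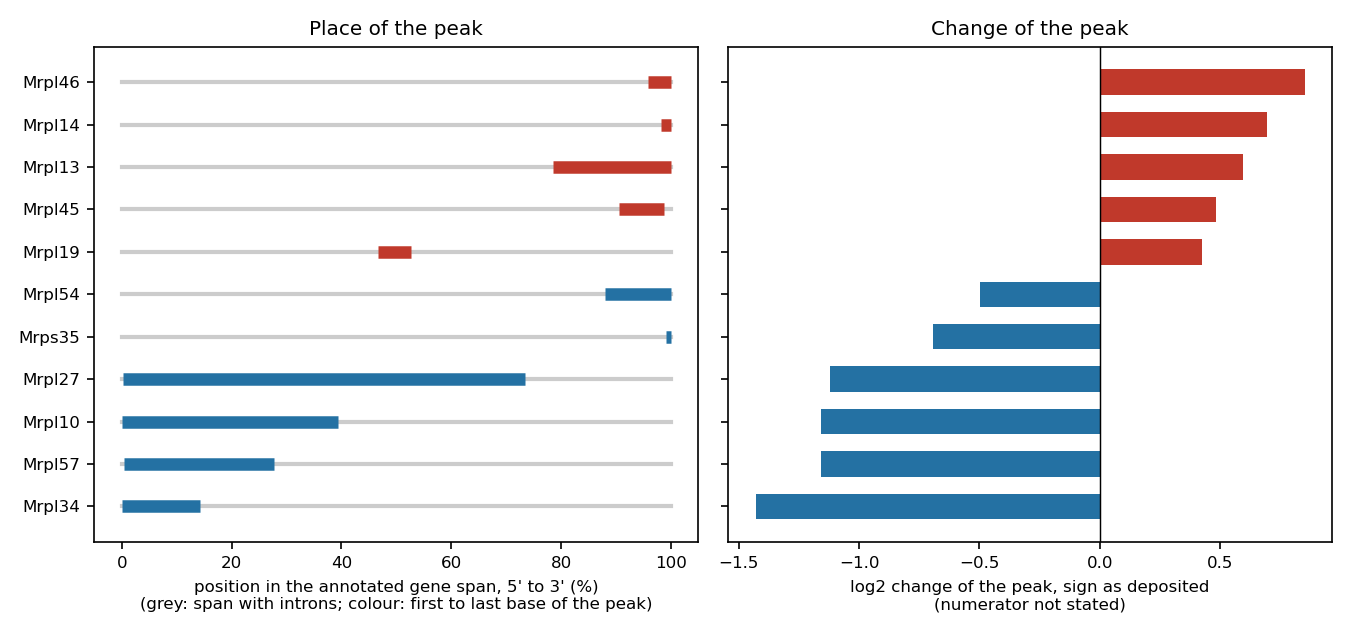
Left, first to last base of each of the 11 peaks (colour) as a percent of the annotated gene span with introns (grey), 5′ to 3′; right, the log2 change of the peak with the sign as deposited. The peaks of Mrpl34, Mrpl57, Mrpl10 and Mrpl27 begin at the gene start and have the 4 lowest changes, from -1.43 to -1.12.

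Counted with a margin of 50 bases, 4 of the 6 negative-change peaks began at the gene start and 2 ended at the gene end, while 0 of the 5 positive-change peaks began at the start and 3 ended at the end. Over differential peaks on other genes that could be placed on a span, 20.7% of 1112 negative-change and 2.03% of 983 positive-change peaks began at the start, and 7.01% and 9.66% ended at the end. Of the peaks that began at the start, 4 on members and 230 on other genes had a negative change, and 0 and 20 a positive one. No difference between members and the rest was tested. The margin was chosen after the positions were seen.

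Enrichment of IP over input, the authors' ratio for each peak, ranged from 2.07 to 5.6 for the negative-change peaks in the authors' deposited table. For the positive-change peaks it was 16.5 on Mrpl19, 24.9 on Mrpl45 and 18.8 on Mrpl46, and 2.51 on Mrpl13 and 2.98 on Mrpl14, in the authors' deposited table. The high values belonged to 3 genes, and Mrpl13 and Mrpl14 lay within the range of the negative-change peaks. The median over all differential peaks was 5.525. Over differential peaks on other genes that could be placed on a span, it was 4.135 for negative and 8.6 for positive changes. Lower enrichment at negative-change peaks was thus also seen outside the members. The false discovery rate of the change ranged from 0.000324 on Mrpl10 to 1.26e-25 on Mrpl13 in the authors' deposited table, and the table gives no error for a change.

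In input RNA, 4 of the 11 genes with a peak fell, 0 rose and 10 lay below 0. Of all members 19.5% fell and 61.0% lay below 0, against 15.5% and 50.2% of all genes tested, and 11 genes are too few to compare with these shares. Those that fell were Mrpl10, with a negative-change peak, and Mrpl14, Mrpl45 and Mrpl13, with positive-change peaks, so falling members carried peaks of both signs. Mrpl19 was the one gene above 0 in input, at 0.05 ± 0.09 in the authors' deposited table. Of the 5 members that rose in input, 0 had a differential peak, and 5 genes are too few to compare. Among all members 14.3% had one, and among genes tested in input 14.8%. The sources used here do not say how input libraries enter the peak change.

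**Figure D5:**
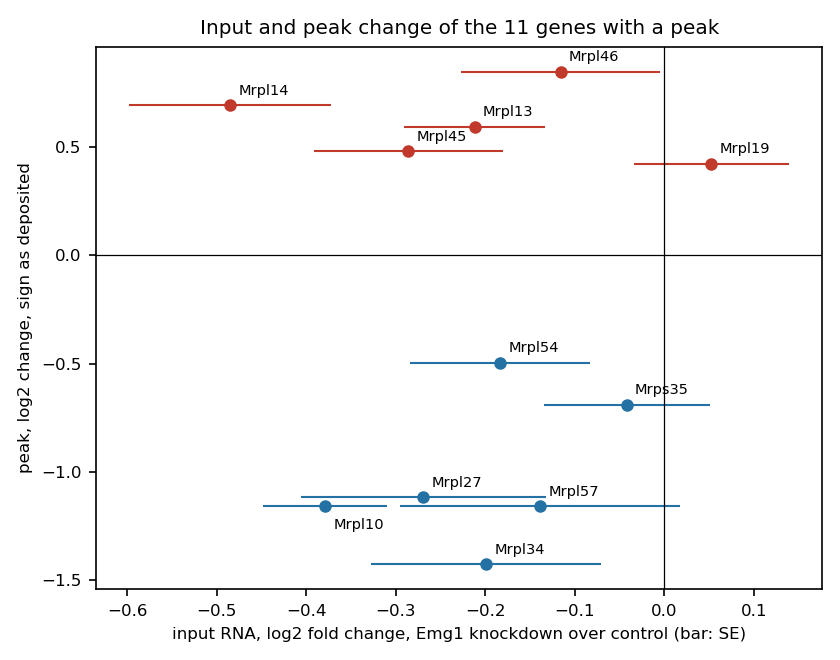
Input log2 fold change (Emg1 knockdown over control, bar for the SE) against the log2 change of the peak, sign as deposited, for the 11 members with a differential peak; red marks positive and blue negative peak changes. Of the 11 genes, 10 lie left of 0 in input, where 61.0% of all members and 50.2% of all genes tested do, and both signs of peak change occur among them.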

How the data were processed

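The submitters' processing notes name mm10 and the tools Trimmomatic, HISAT2 and DESeq2. Not given in the sources used here are the read counter and its strand setting, the annotation, the peak caller and any pooling of replicates. Per the file headers, the mean normalized count is a signal over the libraries of the authors' fit, the fold changes and SE are log2 values, the Wald statistic is a score, and p-values and adjusted p-values were deposited by the authors. In the deposited peak list the enrichment is a ratio, the change is a log2 value, and its false discovery rate is held as a log10 score.

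No values per library were held, so no count model was fitted and a gene counts as called where the deposited adjusted p is under 0.05. Here, counts of calls, medians, 95% Wald intervals, positions and motif matches were computed with Python 3.11.15, numpy 2.4.6, pandas 2.3.3 and scipy 1.17.1. Peak starts were converted to 1-based positions, and gene spans and sequences came from RefSeq GRCm38.p6, the assembly behind mm10, with older symbols in the deposited tables matched through RefSeq's synonyms. The Benjamini-Hochberg step was tested on simulated data. Applied separately to the deposited p-values, it returned the deposited adjusted p. Members and lists were chosen with earlier results of these data known. Ccdc58 and Oxa1l were taken off the list of mitoribosome proteins after their values were seen, because they are not ribosome subunits. Named genes were Emg1, members called or with a peak, the 3 highest and 3 lowest of those not called, those of highest and lowest mean count, Mrps18a, Mrps18b, Mrps18c, Mrps36, and up to 4 genes per other list by adjusted p. Neighbouring genes were named by position, and the genes for NRF1, GABP and YY1 because their motifs were searched. The classes by origin and structure were set after the values were seen. Alternatives were other thresholds, filters, adjustment, centring and member lists.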

Additional observations from a re-analysis of the deposited data

How the results depend on the processing

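Of the 20 members called, 9 stayed called at an adjusted p under 0.01 (7 that fell and 2 that rose), and 23 (29.9%) were called at 0.1, with 8 that rose, against 38.8% of all genes tested. Adjusted over every gene with no filter on low counts, 17 (22.1%) were called and 3 rose, against 24.4% of all genes, a smaller gap than 26.0% against 32.6%. With fold changes centred on genes whose mean count was 100 or more (median 0.01), 18 were called (23.4%, against 32.3% of all genes tested), with 3 that rose, and there Mrpl42 and Mrps15 did not pass and Mrps18c, at 0.01 before, was at -0.0012. A minimum mean of 100 left the same 20, and adding mitoribosome proteins of other symbols gave 22 called of 83. At 0.01, 11.7% of members and 23.3% of all genes tested were called. With the minimum mean, 37.4% of all genes were. With an absolute peak change of at least 1, there were 4 peaks on members, of which 0 had a positive change. The other alternatives for peaks moved no count by over 1.5 times. No paired analysis was possible because no values per library were held, and leaving out replicates or refitting counts was not run for the same reason.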

Other observations

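The annotated spans of 21 members overlap that of another measured gene, and 7 of these 21 were called. Among all 77 members 26.0% were called, and among all genes tested 32.6%. How many of all genes overlap another was not analysed here, and no link between overlap and calls was tested. Mrps6 shares 29138 bases of span with Slc5a3, a myo-inositol transporter gene, which did not pass at 0.09 ± 0.08 in the authors' deposited table, while Mrps6 was at -0.22 ± 0.08. Mrpl49 shares 89 bases with Syvn1, an ER-associated degradation ligase gene, and both rose, by 0.30 ± 0.09 and 0.38 ± 0.11 in the authors' deposited table. Mrpl44 shares 126 bases with Wdfy1, which fell by 0.87 ± 0.09 in the authors' deposited table, while Mrpl44 did not pass at 0.05 ± 0.11. Spans include introns, and whether exons overlap was not analysed here.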
